A study of Arabidopsis thaliana with 26 samples.

Results

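The transcripts of 6 enzymes of leaf carbon metabolism were followed across 26 ATH1 arrays, a short-oligonucleotide platform that reads each transcript with a probe set. They were taken by name as 6 of 22746 probe sets that are not controls: RCA, SBPASE and PRK of the Calvin cycle, and HPR, AT1G80380 and AT1G11860 of photorespiration. Each probe set carried exactly 1 annotated gene, no other annotated probe set read these genes, and all 6 were among the 16154 probe sets bright enough to be tested. The plants, Arabidopsis thaliana Col-0, grew in compost under a 10 h day, at 20 °C and a humidity of 50%, in an atmosphere labelled normal. All 26 arrays belong to the treatment that the series title gives as elevated CO2 with ambient light. Developing leaves (insertions 19 to 21) gave 4 arrays for each of 6 times, namely 2, 4, 12, 24, 48 and 96 h. For mature leaves there were 2, both from 24 h. Untreated plants were not analysed here, so the CO2 treatment itself is not tested, and the labels do not say which leaves met the raised CO2. The labels number replicates without saying that they came from separate plants, so the p-values reflect only how far these samples differ from each other, and that spread may be technical.

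The Calvin cycle fixes CO2 in the chloroplast. Rubisco activase (RCA) frees Rubisco of bound inhibitory sugar phosphates, sedoheptulose bisphosphatase (SBPASE) acts in the regeneration of the CO2 acceptor, and phosphoribulokinase (PRK) makes that acceptor, ribulose bisphosphate. Both of the regenerating enzymes are switched on in the light through thioredoxin. When Rubisco takes oxygen in place of CO2, phosphoglycolate is formed, and photorespiration recovers its carbon through chloroplast, peroxisome and mitochondrion. The T protein of the mitochondrial glycine cleavage complex (AT1G11860), peroxisomal hydroxypyruvate reductase (HPR) and chloroplast glycerate kinase (AT1G80380) act one after the other along that route.

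Values are linear MAS5 signal intensities as deposited, globally scaled so that each array has a trimmed mean of 100, and are given as mean ± SD. Differences are on the log2(intensity + 16) scale ± SE, from limma fitted to all 26 arrays with Benjamini-Hochberg adjustment over all 16154 probe sets, and "called" means an adjusted p under 0.05. Array medians lay between 39.7 and 47.4. At the bright end, where these genes lie, arrays differed more: the 99th percentile of intensity was 1610 ± 85.6 at 12 h and 1993 ± 187 at 24 h, with other group means between 1676 and 1848. Developing 24 h replicate 1 and developing 48 h replicate 1 stood apart, with 99th percentiles of 2235 and 2175 against 1515 to 2010.0 on the other 24 arrays. Their cre spike-in signals were 4220.0 and 3967 against 915 to 2060.1 elsewhere, and their 25S rRNA signals 4449 and 1571 against 16.8 to 1536 elsewhere. Beside each call of a member in a comparison with the 24 h group, the value without developing 24 h replicate 1 is given too. For the other listed genes and the markers it is not given.

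RCA was lowest at 12 h and was not called between leaf ages. Its 4 arrays read 2575, 3627, 2807 and 3050.4 at 2 h, and 3130.0, 2959, 2749 and 2536 at 4 h. At 12 h they read 2299, 2598, 2675 and 2234. The 12 h arrays overlapped the 4 h and 2 h arrays. At 24 h they read 5543, 3032, 3758 and 3915, every one above the 12 h arrays. At 48 h they read 5135, 3123, 2419 and 3662, and at 96 h 2987, 3404, 3957 and 3660.1. The 2 arrays of high cre signal were the highest of all 26. Without them the 24 h mean went from 4062 ± 1059.7 to 3568 ± 471 (n = 3) and the 48 h mean from 3585 ± 1152 to 3068 ± 624 (n = 3). Mature leaves read 3705 and 4106, within the range of developing leaves at 24 h. In the order of group means (12, 4, 2, 96, 48 h, mature, 24 h) every pair of neighbours overlapped in range.

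SBPASE stood at a lower level up to 12 h and at a higher one from 24 h. It read 1453, 1879, 1655 and 1715 at 2 h, 1371, 1568, 1329 and 1221 at 4 h, and 1439, 1958, 1539 and 1332 at 12 h. These early times overlapped. It then read 2637, 1799.9, 2226 and 2187 at 24 h, 2758, 2134, 1777 and 2232 at 48 h, and 2261, 2305, 2627 and 2519 at 96 h. The 12 h and 24 h arrays overlapped through 1 array of each group, and the later 3 times overlapped one another. Mature leaves, at 2666 and 3045, lay above all 4 developing arrays at 24 h and also above all 96 h arrays, although developing 48 h replicate 1 exceeded the lower of them. In the order 4, 12, 2, 24, 48, 96 h, mature, only the step from 96 h to mature leaves had ranges that did not overlap.

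PRK followed a similar course with a higher end point in mature leaves. It read 1408, 1624, 1389 and 1455 at 2 h, 1425, 1570.2, 1279 and 1205 at 4 h, and 1563, 2114, 1626 and 1332 at 12 h. All 24 h arrays, at 3278, 2019, 1879.9 and 1972, lay above all 2 h arrays. The 48 h arrays read 3252, 2063, 1740.4 and 2090.5, and the 96 h arrays 2096, 2232, 2564 and 2699. The 2 arrays of high cre signal were again the highest among developing leaves, and without them the 24 h and 48 h means fell from 2288 ± 663 and 2286 ± 663 to 1957 ± 71.0 and 1965 ± 195 (n = 3 each). Mature leaves read 3159 and 3428, both above every other developing array. As for SBPASE, 96 h and mature leaves were the only neighbours in the order (4, 2, 12, 48, 24, 96 h, mature) without overlap.

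AT1G11860, the T protein of glycine cleavage, was lowest at 4 h and higher from 12 h on. It read 1277, 1549, 1199 and 1331 at 2 h and 1184, 1096, 961 and 1066 at 4 h. Every 4 h array lay below every 2 h array. The 12 h arrays, at 1649.8, 1624, 1429.9 and 1511, lay above every 4 h array. The 24 h arrays spread widely, at 2115, 1205, 1607 and 1713, with the highest on the replicate that had the high spike-in signal. At 48 h the values were 1830.2, 1729, 1513 and 1723, and at 96 h 1761, 1732, 1836 and 1759.8, with an SD of 44.4. All 96 h arrays lay above all 12 h arrays, a pair of times that was not tested. Without its replicate 1 the 24 h mean was 1509 ± 268 (n = 3) instead of 1660.0 ± 374. Mature leaves, at 1585 and 1940.1, overlapped with developing leaves at 24, 48 and 96 h. In the order 4, 2, 12, 24, 48 h, mature, 96 h, only 4 h and 2 h did not overlap as neighbours.

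HPR, the hydroxypyruvate reductase, had the widest range of the 6 genes, with group means from 909.9 ± 107 at 4 h to 3510.0 ± 393 in mature leaves, a ratio of 3.86. It read 1034, 1108, 1091 and 1108 at 2 h and 1047, 938, 804 and 852 at 4 h. At 12 h it read 1376, 1669, 1329.9 and 1136, all above the 2 h and 4 h arrays. At 24 h it read 2649.6, 1707, 1742 and 1690.4, all above the 12 h arrays. The 48 h arrays read 2444, 1983, 1698 and 1954, and the 96 h arrays 2240.4, 2055, 2275 and 2248. These last 3 times overlapped. Without its replicate 1 the 24 h mean was 1713 ± 26.5 instead of 1947 ± 469, and the 48 h mean 1878 ± 157 instead of 2019.9 ± 310.5 (n = 3 each). Mature leaves read 3232 and 3788, above all 24 developing arrays. In the order 4, 2, 12, 24, 48, 96 h, mature, the steps from 2 h to 12 h, 12 h to 24 h and 96 h to mature leaves had ranges that did not overlap.

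AT1G80380, the glycerate kinase, changed in small steps. It read 377, 403, 332 and 358 at 2 h, 404, 316, 275 and 349.7 at 4 h, 386, 454, 344 and 363 at 12 h, and 452, 388, 368 and 455 at 24 h. Each of these groups overlapped with the next. At 48 h it read 431, 456, 423 and 478. At 96 h it read 498, 492, 551 and 508, all above the 48 h arrays. Mature leaves, at 659.6 and 628, exceeded all 24 developing arrays. Unlike for RCA and PRK, developing 48 h replicate 1 was not the highest array of its group here. The order of group means was 4, 2, 12, 24, 48, 96 h, mature, and only the steps from 48 h to 96 h and from 96 h to mature leaves had ranges that did not overlap.

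**Figure D1:**
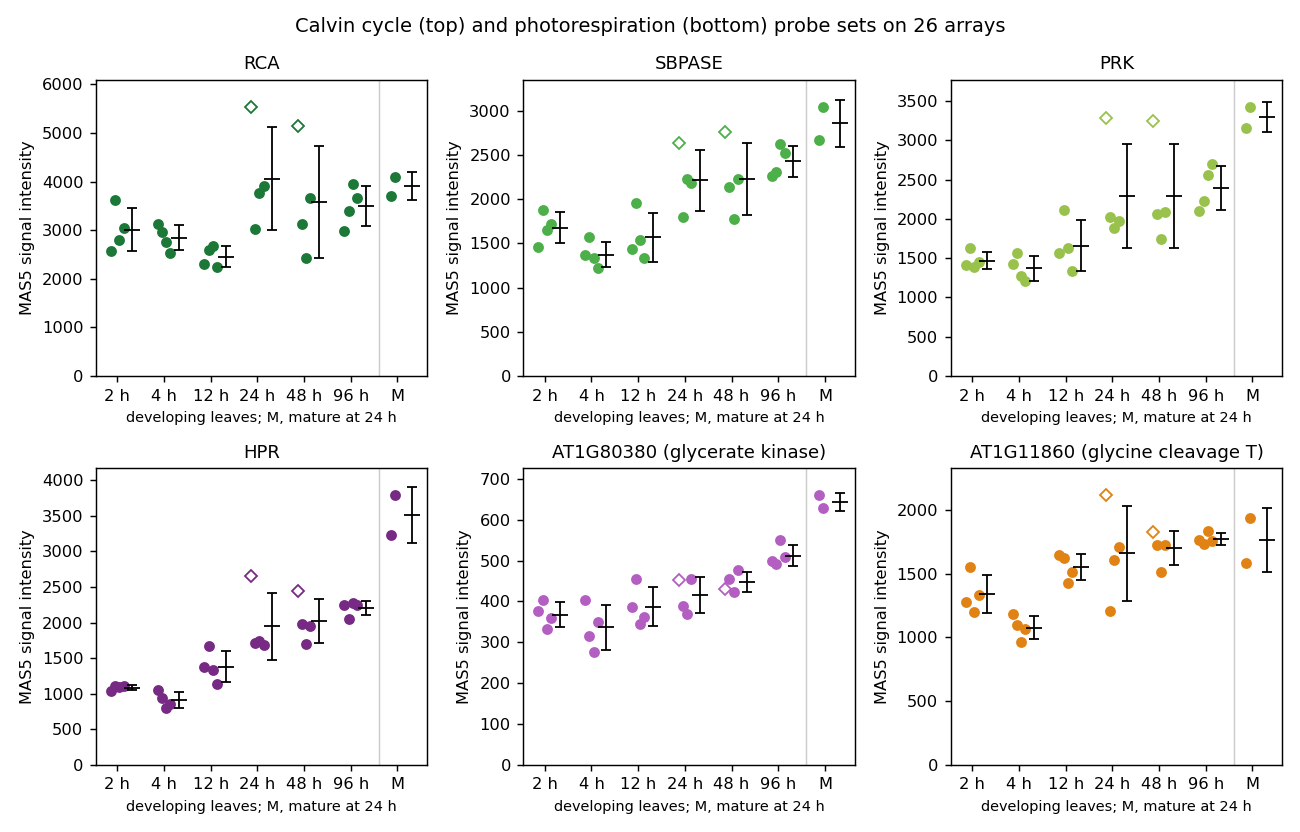
Signal intensity (linear axis from 0) of the 6 probe sets on every array, by group; circles and diamonds are arrays, and the black bars are means ± SD (n = 4, or n = 2 in mature leaves, M). Open diamonds mark developing 24 h and 48 h replicate 1, the 2 arrays of high cre signal; RCA and PRK reach 5543 and 3278 there, while AT1G80380 does not stand out on them.

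All 6 genes differed between the 6 times in developing leaves by limma's F test, where 50% of all tested probe sets were called. The adjusted p was 4.7e-09 for HPR, 1.5e-05 for SBPASE, 8.9e-05 for AT1G11860, 0.00026 for PRK, 0.00026 for AT1G80380 and 0.015 for RCA. Under the deposited scaling, the highest mean in developing leaves was at 96 h for 5 of the 6 and at 24 h for RCA. The lowest was at 4 h for 5 and at 12 h for RCA. The ratio of the highest to the lowest mean in developing leaves was 2.42 for HPR and between 1.52 and 1.77 for the others. After quantile normalization RCA was lowest at 4 h (2983) and highest at 48 h (3418). AT1G11860 was then highest at 12 h (1762, against 1749 at 96 h).

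The comparison of 4 h versus 2 h asks what changed at the earliest sampled step. The 6 differences were all negative, from -0.31 ± 0.12 for AT1G11860 and -0.28 ± 0.13 for SBPASE to -0.08 ± 0.17 for RCA, and none was called in limma (of all probe sets 2.04% were, 1.36% higher and 0.681% lower). Their median was -0.19 against -0.01 for all tested probe sets. An unadjusted p under 0.05 was found for 1562 of the 16154 tested probe sets. Of the 6 members, 2 had one, AT1G11860 (adjusted p = 0.29) and SBPASE (adjusted p = 0.457). These 2 passed the threshold after quantile normalization, with differences of -0.33 (adjusted p = 0.041) and -0.31 (adjusted p = 0.043). Sampling at 2, 4, 12 and 24 h also changes the hour of the day, which cannot be told apart from the length of treatment.

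Between 4 h and 12 h in developing leaves, 2 photorespiratory genes rose. HPR rose by 0.58 ± 0.13 (adjusted p = 0.0011), from 909.9 ± 107 to 1378 ± 220.2. AT1G11860 rose by 0.52 ± 0.12 (adjusted p = 0.0013), from 1077 ± 92.0 to 1554 ± 102. Both had no overlap between groups, and both were called under every alternative tried. The share of all probe sets without overlap between groups was not counted, here or in the other comparisons. These were 2 of 6 members called, all higher, where 15.8% of all probe sets were called higher, 12.8% lower and 28.6% in either direction. Of all calls 55.2% were higher under the deposited scaling and 45.2% after scaling to a common median, where the same count of 2 members was called. AT1G80380 differed by 0.20 ± 0.10 (adjusted p = 0.16), PRK by 0.26 ± 0.17, SBPASE by 0.18 ± 0.13 and RCA by -0.21 ± 0.17. After quantile normalization PRK (0.47, adjusted p = 0.0009) and SBPASE (0.39, adjusted p = 0.00058) were called as well, and RCA differed by 0.05.

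Of other genes of the same routes, listed by locus, few had an annotated probe set. At 12 h versus 4 h the listed Calvin cycle had 1 called of 4 tested, AT1G56190, a plastid phosphoglycerate kinase, which rose from 496 ± 58.4 to 736 ± 123. Photorespiration had 4 called higher of 8, the 2 members and 2 others. LrgB (PLGG1), the glycolate and glycerate transporter of the chloroplast envelope, rose by 0.38 ± 0.09, and AT1G32470, an H protein of glycine cleavage, by 0.27 ± 0.10. After scaling to a common median 3 of 8 were called, AT1G32470 no longer (0.21, adjusted p = 0.15). AT2G35120, another H protein, differed by -0.01, and AT1G79870, a cytosolic hydroxypyruvate reductase, by 0.15 (adjusted p = 0.30). Of 4 thioredoxin system genes 1 rose, AT2G04700, the catalytic subunit of ferredoxin-thioredoxin reductase, by 0.36 ± 0.09. With the members counted, the medians were 0.22, 0.23 and 0.23 for the 3 lists, against 0.04 for all tested probe sets, of which 15.8% were called higher. Without the members the photorespiration median was 0.15 over 5 genes. The 1 Calvin cycle gene left, AT1G56190, differed by 0.55, and the thioredoxin list held no members.

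At 12 h versus 2 h no member was called in limma, while 28.6% of all probe sets were called (15.1% higher, 13.5% lower). An unadjusted p under 0.05 was found for 1 of the 6 members, against 6112 of the 16154 tested probe sets. HPR came nearest, at 0.33 ± 0.13 (adjusted p = 0.062), with no overlap between its groups. It was called under 6 of the alternatives, among them leaving out developing 12 h replicate 4 (adjusted p = 0.027). RCA differed by -0.29 ± 0.17 (95% confidence interval -0.64 to 0.06). PSAE-1, a photosystem I subunit used here as a mesophyll marker, was lower at 12 h, at 1824 ± 158 against 2842 ± 326 at 2 h.

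From 12 h to 24 h, 4 members rose, 3 of them of the Calvin cycle. RCA rose by 0.69 ± 0.17 (adjusted p = 0.0027), SBPASE by 0.50 ± 0.13 (adjusted p = 0.0049), HPR by 0.48 ± 0.13 (adjusted p = 0.0061) and PRK by 0.44 ± 0.17 (adjusted p = 0.048). AT1G80380 (0.10 ± 0.10) and AT1G11860 (0.07 ± 0.12, and -0.22 after quantile normalization with an adjusted p of 0.061) were not called. Of all probe sets 13% were called higher, 16.2% lower and 29.3% in either direction. None of the 4 calls held after quantile normalization, where the differences were 0.12, 0.16, 0.19 and 0.10 (adjusted p between 0.11 and 0.52). That setting gives every array the same distribution, and so removes the difference in 99th percentile between 12 h and 24 h arrays. This difference between arrays ran the same way as these 4 rises, and its part in them was not tested. Without developing 24 h replicate 1, RCA (0.53, adjusted p = 0.018), SBPASE (0.41, adjusted p = 0.025) and HPR (0.32, adjusted p = 0.040) were called, and PRK was not (0.26, adjusted p = 0.24). PRK lost its call under 11 alternatives in all. PSAE-1, the mesophyll marker, rose by 0.98 ± 0.17 over the same interval, to 3657 ± 712, and its part in these rises was not tested.

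Some other listed genes went the other way over this interval. Outside the members, 1 of 1 Calvin cycle, 1 of 5 photorespiratory and 1 of 4 thioredoxin system genes tested were called lower. AT1G56190, the only listed Calvin cycle gene tested besides the members, fell by 0.31 ± 0.11 (adjusted p = 0.033), from 736 ± 123 to 585 ± 46.8. Of 8 photorespiratory genes 1 was called higher, HPR, and 1 lower, AT1G79870 (-0.27 ± 0.10, adjusted p = 0.036). Of 4 thioredoxin system genes AT2G04700 fell by 0.61 ± 0.09 (adjusted p = 1.1e-05), and none was called higher. After scaling to a common median, AT1G56190 (adjusted p = 0.10) and AT1G79870 (adjusted p = 0.16) were no longer called.

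The balance between both routes was also described within arrays. The mean log2 value of the 3 photorespiratory members minus that of the 3 Calvin cycle members, taken within each array, was -0.96 ± 0.12 at 12 h (range -1.10 to -0.84) and -1.29 ± 0.08 at 24 h (range -1.40 to -1.21). It was -1.24 ± 0.09 at 2 h and -1.32 ± 0.17 at 4 h. All 4 arrays at 12 h lay above all arrays at 2, 4 and 24 h, but the 12 h range overlapped with those at 48 h (-1.14 ± 0.26, range -1.51 to -0.91) and 96 h (-1.10 ± 0.12, range -1.20 to -0.94) and held the 2 mature arrays (mean -1.06). This difference was not tested, because the members were chosen with results known, and it was taken under the deposited scaling only. From 12 h to 24 h RCA, SBPASE and PRK differed by 0.69, 0.50 and 0.44 there, and by 0.12, 0.16 and 0.10 after quantile normalization. HPR, AT1G80380 and AT1G11860 differed by 0.48, 0.10 and 0.07, and by 0.19, 0.10 and -0.22 after quantile normalization. The size of the drop in the balance from 12 h to 24 h thus depends on the scaling.

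**Figure D2:**
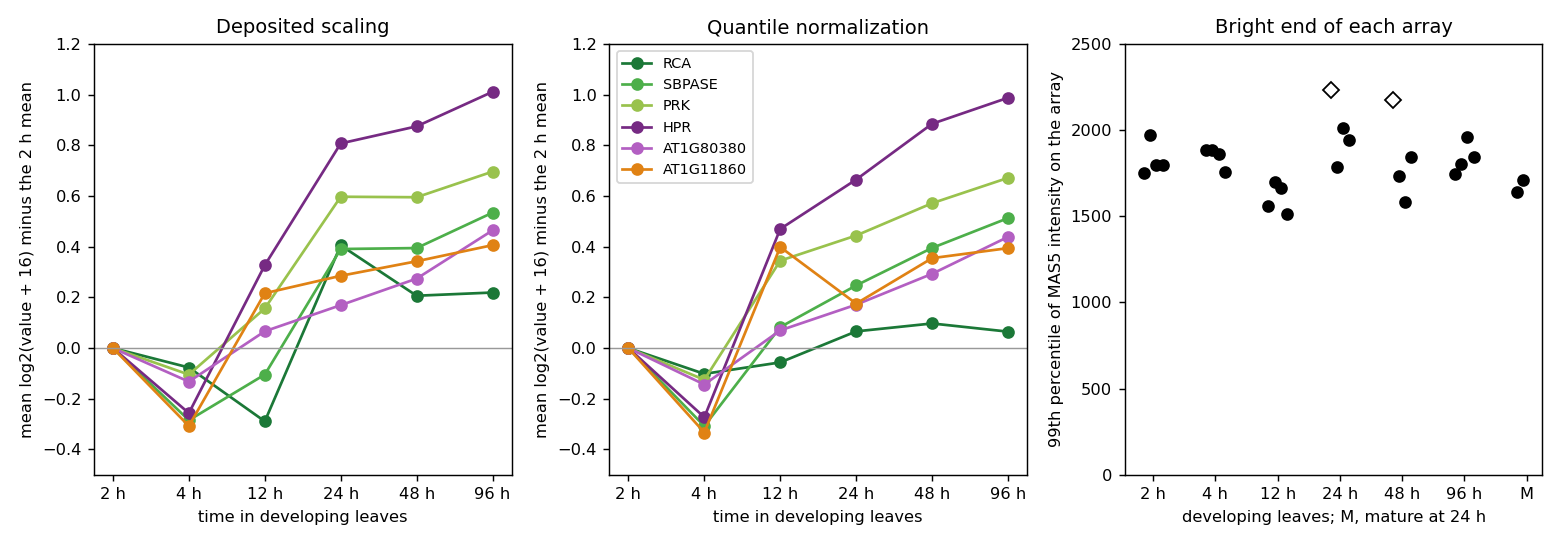
Mean log2(value + 16) of each gene in developing leaves relative to its 2 h mean, under the deposited scaling (left) and after quantile normalization (middle), and the 99th percentile of intensity on each array (right; open diamonds are the 2 arrays of high cre signal, M is mature leaves). RCA is lowest at 12 h on the left and lies near 0 throughout in the middle panel, while HPR climbs to about the same 96 h level in both.

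Over the first day as a whole, 24 h versus 2 h, HPR and PRK rose. HPR rose by 0.81 ± 0.13 (adjusted p = 0.00013) from 1085 ± 34.8 to 1947 ± 469, and PRK by 0.60 ± 0.17 (adjusted p = 0.022) from 1469 ± 107 to 2288 ± 663. All 6 differences were positive, with a median of 0.40 against -0.01 for all tested probe sets, but SBPASE (0.39 ± 0.13, adjusted p = 0.060), RCA (0.41 ± 0.17), AT1G11860 (0.29 ± 0.12) and AT1G80380 (0.17 ± 0.10) were not called. The 2 called members stand against 4.33% of probe sets called higher, 4.88% lower and 9.21% in either direction. HPR held under every alternative, including quantile normalization (0.66, adjusted p = 1.6e-05) and leaving out developing 24 h replicate 1 (0.65, adjusted p = 0.00063). PRK held after quantile normalization (0.44, adjusted p = 0.0053) but lost its call when replicate 1 at 24 h was left out (0.41, adjusted p = 0.12), and likewise for replicate 1 (adjusted p = 0.055) or replicate 3 (adjusted p = 0.059) of the 2 h group. Without replicate 2 at 24 h, AT1G11860 (0.43, adjusted p = 0.010) and SBPASE (0.49, adjusted p = 0.021) were called as well. Outside the members, LrgB rose from 639.9 ± 46.8 to 812 ± 40.8 (0.34 ± 0.09, adjusted p = 0.019), which made 2 called of 8 photorespiratory genes tested.

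From 24 h on, samples lay whole days apart. At 48 h versus 24 h no member was called and none had an unadjusted p under 0.05. No probe set of the 16154 was called in limma (0%), with 1655 at an unadjusted p under 0.05. SBPASE differed by 0.00 (95% confidence interval -0.27 to 0.27), HPR by 0.07 (-0.20 to 0.34) and RCA by -0.20 (-0.55 to 0.15). Each interval spans changes in both directions. With replicate SDs of 1059.7 and 1152, RCA was the least certain of the 6.

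At 96 h versus 24 h, AT1G80380 rose by 0.30 ± 0.10 from 416 ± 44.1 to 512 ± 26.5. Its adjusted p of 0.0495 lay at the threshold, and the call was lost under 11 of the alternatives (adjusted p of up to 0.154), including 6 of the 8 that leave out an array of either group. Without developing 24 h replicate 1 it was called (0.34, adjusted p = 0.037). It was the only member called, against 7.74% of probe sets called higher, 7.23% lower and 15% in either direction. HPR differed by 0.20 ± 0.13 (adjusted p = 0.33). Without developing 24 h replicate 1 its difference was 0.36 (adjusted p = 0.038), and after quantile normalization 0.32 (adjusted p = 0.016). SBPASE passed after quantile normalization only (0.27, adjusted p = 0.028). RCA differed by -0.19 ± 0.17, and AT1G11860 and PRK by 0.12 ± 0.12 and 0.10 ± 0.17.

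Beside these members, LrgB rose by 0.34 ± 0.09 from 24 h to 96 h (adjusted p = 0.013), AT1G56190 by 0.37 ± 0.11 (adjusted p = 0.020) and AT2G04700 by 0.34 ± 0.09 (adjusted p = 0.013). LrgB thereby reached 1032 ± 52.0 at 96 h, and was among the 2 called of 8 photorespiratory genes. Dividing-cell markers went the other way over the same interval: AUR1, AUR2 and HTB1 were all lower at 96 h (3 of 3). SPCH was lower too, 1 of 2 guard cell lineage markers tested, while TRY and SWEET11 were higher. None of the 3 ageing-leaf markers, the 2 markers of abaxial identity or PSAE-1 was called. The markers' part in the members' changes was not tested. In whole leaves, fewer cells of a type and less RNA per cell cannot be told apart.

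**Figure D3:**
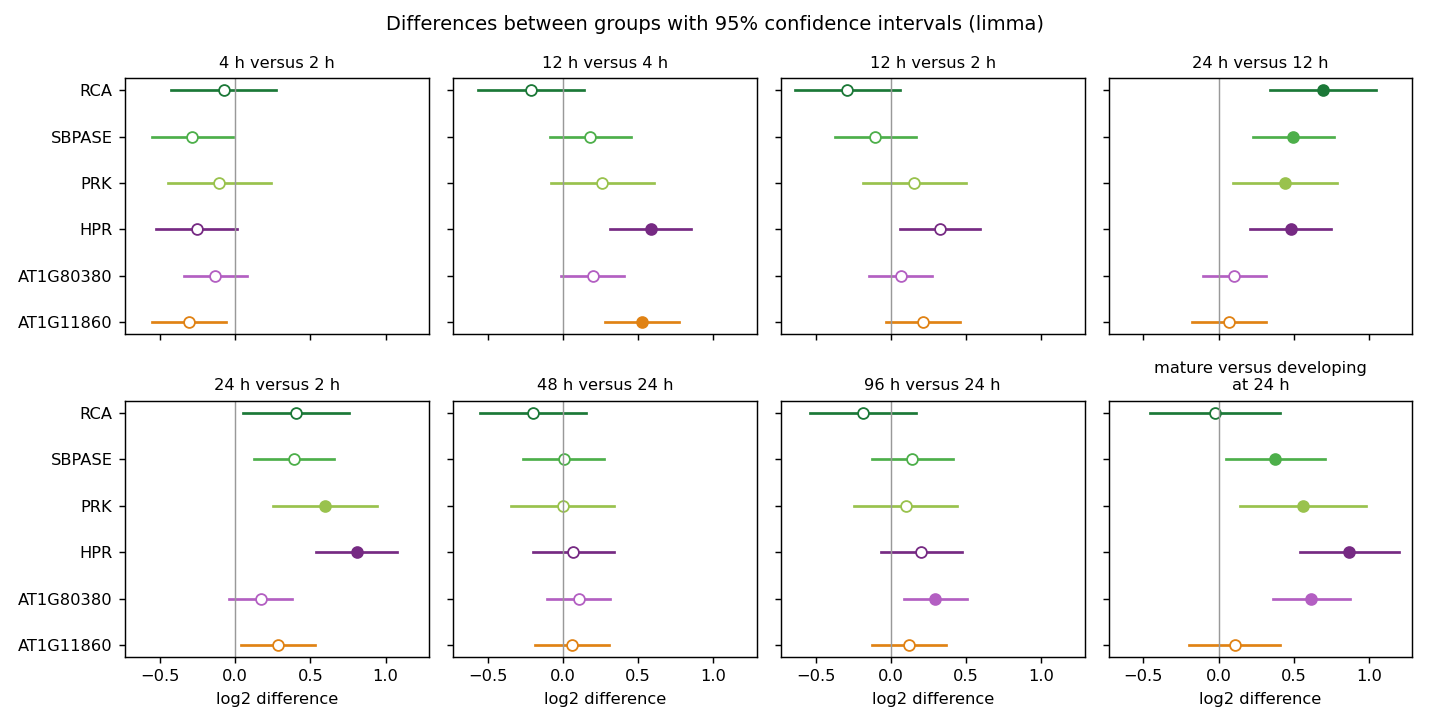
Log2 differences of the 6 genes for 8 comparisons with 95% confidence intervals from limma; filled points have an adjusted p under 0.05. HPR has the most filled points, and the comparisons 4 h versus 2 h, 12 h versus 2 h and 48 h versus 24 h have none.

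Mature leaves were set against developing leaves at 24 h, a comparison of leaf ages at a fixed time. The labels do not say which leaves met the raised CO2, so leaf age and exposure cannot be told apart. HPR rose by 0.87 ± 0.16 (adjusted p = 4.3e-05), AT1G80380 by 0.62 ± 0.12 (adjusted p = 0.00013), PRK by 0.56 ± 0.21 (adjusted p = 0.022) and SBPASE by 0.38 ± 0.16 (adjusted p = 0.049). RCA differed by -0.02 ± 0.21 (95% confidence interval -0.45 to 0.41) and AT1G11860 by 0.11 ± 0.15 (-0.19 to 0.41). The 4 called members, all higher, compare with 24.1% of probe sets called higher, 30.7% lower and 54.8% in either direction, and their median of 0.47 over all 6 with -0.10 for all tested probe sets. HPR and AT1G80380 kept their calls under every alternative. Without developing 24 h replicate 1 all 4 were called, with differences of 1.02 for HPR, 0.66 for AT1G80380, 0.75 for PRK and 0.46 for SBPASE. PRK lost its call under 6 alternatives and SBPASE under 10, including without developing 24 h replicate 3 or 4 (adjusted p between 0.054 and 0.070). With 1 mature array left out, the remaining one is assumed to vary like the other groups, and the differences were 0.62 and 0.50 for PRK and 0.47 and 0.28 for SBPASE (adjusted p between 0.064 and 0.30).

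Both scalings gave RCA and AT1G11860 the smallest differences of the 6. After quantile normalization AT1G11860 differed by 0.30 (adjusted p = 0.022) and RCA by 0.06 (adjusted p = 0.49). RCA lay between the 99.7th and 99.9th percentile of every array, and quantile normalization gives each rank the same value on all arrays, so RCA has little room to differ between groups after it.

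The other listed genes ranged more widely with leaf age. Of 8 photorespiratory genes 5 were called higher and 1 lower in mature leaves. Besides HPR and AT1G80380 the higher ones were LrgB (0.55 ± 0.11), AT4G22840 (BASS6, a plastid glycolate transporter; 0.65 ± 0.14) and AT1G79870 (0.46 ± 0.12). The lower one was AT2G35120, an H protein, at 88.8 ± 9.80 against 198 ± 12.0 (-1.03 ± 0.14, adjusted p = 2.5e-07), while AT1G32470, the other H protein tested, differed by -0.18 ± 0.12. The 3 tested genes of the glycine cleavage complex, the T protein and both H proteins, were not called higher under the deposited scaling. Of 4 Calvin cycle genes 3 were higher, AT1G56190 by 0.64 ± 0.13 together with SBPASE and PRK. Of 4 thioredoxin system genes 2 were higher, AT2G04700 by 0.91 ± 0.11 and TRXF2, an f-type thioredoxin, by 0.50 ± 0.21. NTRC, a plastid thioredoxin reductase, was lower by -0.39 ± 0.12. TRXF2 was not called after quantile normalization (adjusted p = 0.088), nor NTRC after scaling to a common median (adjusted p = 0.063).

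**Figure D4:**
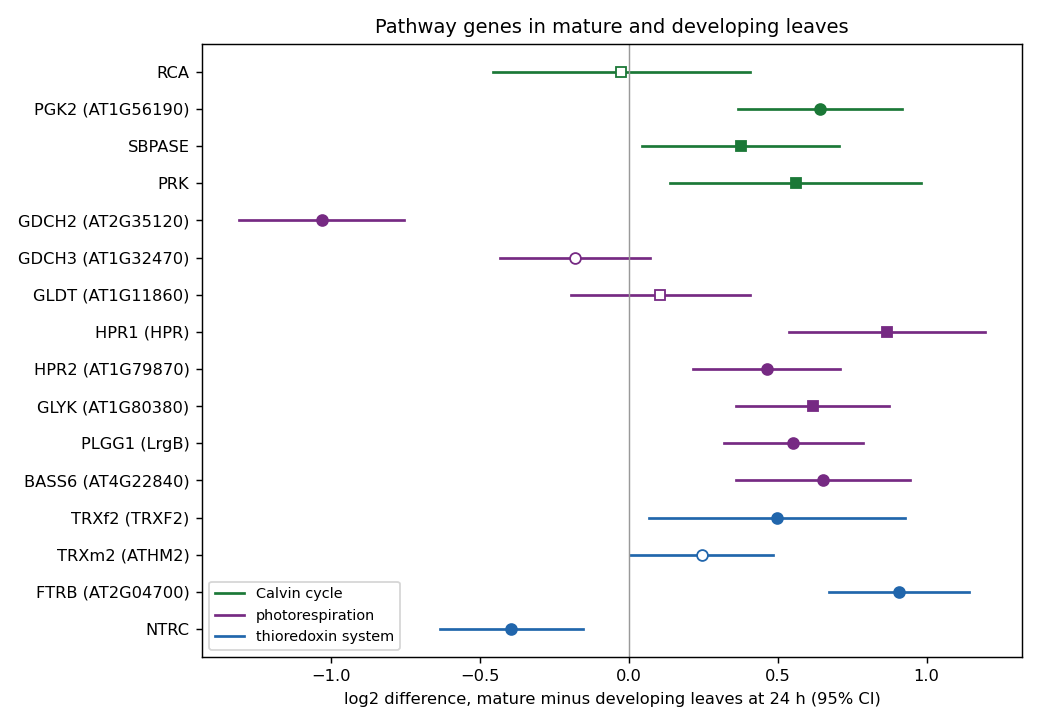
Log2 difference between mature and developing leaves at 24 h for the 16 tested genes of the 3 lists, with 95% confidence intervals; squares are the 6 members, and filled symbols have an adjusted p under 0.05. Most called genes lie to the right of 0, with AT2G35120 and NTRC to the left.

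Markers of cell type and leaf age, of which few had an annotated probe set, also differed between the leaf ages. The summed signal of 3 dividing-cell markers (AUR1, AUR2, HTB1) was 583 to 637 on the developing 24 h arrays and 112 to 117 in mature leaves, with all 3 called lower. The summed signal of 3 ageing-leaf markers (WRKY53, SAG101, SAG29) was 36.8 to 56.4 in developing and 247 to 297 in mature leaves, all 3 called higher. SWEET11, a phloem marker, read 86.6 to 138 and 611 to 641. TRY, a trichome marker, read 50.3 to 66.5 and 105 to 148. The 2 markers of abaxial identity (YAB3, YAB5) summed to 195 to 227 and 95.7 to 108, and 2 guard cell lineage markers summed to 157 to 211 and 36.9 to 41.9, with SPCH at 3.67 ± 1.03 in mature leaves. PSAE-1 was not called between the leaf ages (-0.13), and CLV3, a shoot meristem marker, was too dim to be tested. The part of these markers' cell types in the members' differences was not tested.

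Within groups the members often deviated in the same direction on an array. On developing 24 h replicate 1, all 6 members lay above their group's mean log2 value, by up to 0.56 for PRK, and on developing 24 h replicate 2 all 6 lay below it, by up to 0.43 for AT1G11860. On developing 48 h replicate 3, all 6 read their group's lowest value, and on developing 2 h replicate 2 all 6 read the highest. RCA had the widest spread within a group, with an SD of 32.1% of the mean at 48 h. Quantile normalization reduced its SDs at 24 h and 48 h from 1059.7 and 1152 to 163 and 73.7, and those of HPR from 469 and 310.5 to 237 and 57.2. Over the 26 arrays, the deviations of 2 members from their group means gave Pearson's r from 0.32 (RCA and AT1G80380) to 0.90 (PRK and HPR). These are descriptions of arrays that share their scaling and their group.

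**Figure D5:**
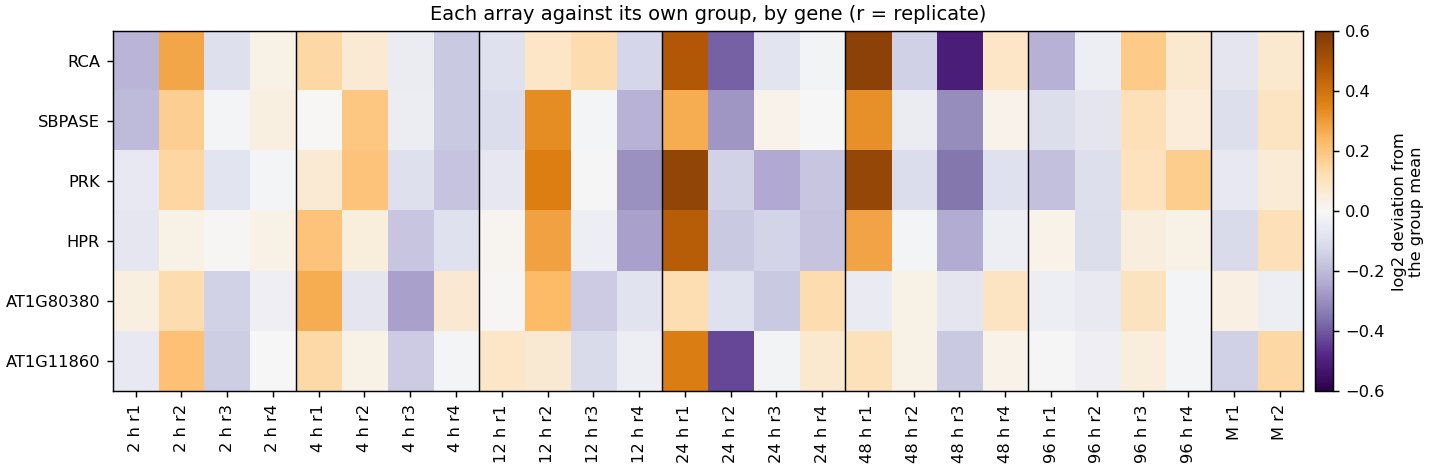
Deviation of each array from its group's mean log2 value for the 6 genes; orange is above and purple below the group mean, and black lines separate the groups. Developing 24 h and 48 h replicate 1 are orange in nearly all rows, and developing 48 h replicate 3 is purple in all 6.

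The genes whose profile was most like each member were taken by Pearson's r over the 26 arrays, among 7119 tested probe sets with 1 gene, as a description. For RCA these were psaB, a plastid-encoded core protein of photosystem I (r = 0.96), GAPC2, a cytosolic glyceraldehyde phosphate dehydrogenase (0.95), and atpB, a plastid-encoded ATP synthase subunit (0.94). For HPR they were AT4G33666 (0.96), AT1G26220 (0.96) and NdhS, a subunit of the chloroplast NDH complex (0.95). NdhS read 179 at 2 h, 350 at 96 h and 705 in mature leaves, a course like that of HPR. AT1G26220 was also the second for PRK (0.90), after AT1G04350 (0.91) and before AT5G38520 (0.90). SBPASE was matched by AT5G55620 (0.94), ECS1 (0.93) and AT4G26860 (0.92). AT1G80380 was matched by AT3G52360, AT1G14200 and AT1G68660 (each 0.92). AT1G11860 was matched by AT3G60080 (0.90), HCT, an enzyme of phenylpropanoid metabolism (0.89), and AT2G35840 (0.88). The 26 arrays share groups and scaling, and no p is given.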

How the data were processed

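Per the submitters' processing notes, the authors made the deposited signal intensities with MAS5 (version not given in the sources used here), on a linear scale. The trimmed mean of every array was 100. The table held 22810 probe sets, 64 of them controls, on 26 arrays, and the number of arrays limits the precision. Gene names came from the platform annotation joined to the RefSeq gene table: 13513 probe sets had 1 gene, 503 several and 8794 none listed here, so list members without a name could not be followed. The filter kept probe sets above the 40th percentile of an array on at least 2 arrays. The log2(intensity + 16) values were fitted with limma 3.58.1 in R 4.3.3 (lmFit, eBayes with an intensity trend) on 7 group means, and p-values were adjusted over 16154 probe sets. Comparisons that use the same group share its arrays. The procedure was tested on simulated data. Alternatives were other pseudocounts, no filter, quantile normalization, a common median, no trend, only the groups compared, array weights, a replicate block, and leaving out arrays. Named genes were the 6 members, the tested genes of the pathway and marker lists, and the 3 probe sets most correlated with each member. The members and lists were chosen with earlier results of these data known. No 2 arrays held identical values.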

Additional observations from a re-analysis of the deposited data

Results flagged for a closer look

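In 36 sets of 4 arrays, 1 gene at 1 time each, 3 single arrays lay far from the others of their group by Dixon's criterion, which chance meets in about 1 of 20 sets. For PRK at 24 h, developing 24 h replicate 1 was the highest at 3278. For HPR at 24 h the same array was the highest at 2649.6. For HPR at 96 h, developing 96 h replicate 2 was the lowest at 2055, in a group with an SD of 101.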

How the results depend on the processing

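Across the alternatives, the 48 member differences kept direction and side of the threshold in 752 repeats, lost a call in 44, gained one in 24 and changed sign in 32, which concern 13 differences, 0 of them called as reported or after the change. All 6 members kept their F test call throughout. After quantile normalization the members called were 2 at 4 h versus 2 h, where 2.12% of all probe sets were called. They were 4 at 12 h versus 4 h (27.8% of all) and 3 at 12 h versus 2 h (28.6%). At 24 h versus 12 h they were 0 (28.1%), and at 24 h versus 2 h 2 (9.43%). At 48 h versus 24 h they were 0 (0%), and at 96 h versus 24 h 2 (15%). For mature versus developing leaves they were 5 (53.6%). At 12 h versus 2 h, fitting only the groups compared, the replicate block, array weights and dropping both arrays of high cre signal each gave 1. At 24 h versus 2 h array weights gave 4. At 96 h versus 24 h a pseudocount of 1, no filter, no trend and only the groups compared gave 0, and leaving out the 2 arrays gave 2. For mature versus developing leaves, only the groups compared and the replicate block gave 2. Across all alternatives, 3957 to 5353 probe sets were called at 12 h versus 2 h and 931 to 1842 at 24 h versus 2 h. At 96 h versus 24 h they were 1565 to 3001, and for mature leaves 7081 to 9674. Leaving out 1 array gave 0 to 1 members at 12 h versus 2 h, 2 to 3 at 12 h versus 4 h, 3 to 4 at 24 h versus 12 h, 1 to 4 at 24 h versus 2 h, 0 to 2 at 96 h versus 24 h and 2 to 4 for mature leaves. In the same order, the counts of all 16154 probe sets were 3957 to 4346, 3999 to 4245 and 4009 to 4518. They were then 1117 to 1384, 1600 to 2486 and 7081 to 8728. The causes were not tested. Replicate numbers are not said to mark a shared batch, and the main fit takes no account of them. Same-numbered arrays' residual correlations ran from -0.17 to 0.52, and those of different-numbered arrays in different groups from -0.42 to 0.38. Of 26 arrays 14 were best matched by their own number, a count for which no chance level was worked out. Over all probe sets, 48 h versus 24 h gave 0 calls and up to 500 with array weights, 19 with the replicate block and 83 without developing 24 h replicate 1. The counts at 24 h versus 2 h (1487) and 96 h versus 24 h (2419) were 931 and 1565 with only the groups compared, the latter 1600 without developing 96 h replicate 1, and 330 at 4 h versus 2 h became 565 with array weights. The sign changes under quantile normalization were AT1G11860 at 24 h versus 12 h (-0.22), RCA at 12 h versus 4 h (0.045), 48 h versus 24 h (0.031) and in mature leaves (0.063), SBPASE at 12 h versus 2 h (0.083) and PRK at 48 h versus 24 h (0.13). With a common median they were RCA in mature leaves (0.083) and SBPASE at 48 h versus 24 h (-0.049). With array weights they were PRK (0.029) and SBPASE (-0.058) at 48 h versus 24 h and RCA in mature leaves (0.021). Without both arrays of high cre signal they were AT1G11860 at 24 h versus 12 h (-0.056), PRK (0.0012) and SBPASE (-0.016) at 48 h versus 24 h, and RCA in mature leaves (0.14). Leaving out 1 array, AT1G11860 ranged from -0.056 to 0.21 at 24 h versus 12 h, -0.086 to 0.18 at 48 h versus 24 h, -0.022 to 0.25 at 96 h versus 24 h and -0.038 to 0.25 in mature leaves. AT1G80380 ranged from -0.010 to 0.12 at 12 h versus 2 h, and RCA from -0.15 to 0.016 at 4 h versus 2 h and -0.15 to 0.14 in mature leaves. At 48 h versus 24 h HPR ranged from -0.028 to 0.22, PRK from -0.18 to 0.18 and SBPASE from -0.10 to 0.11.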
